A study of Mus musculus with 18 samples.

Results

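The samples described here are the 6 of 18 whose titles carry the number 10. They were compared with the 12 whose titles carry 11 or 14. Each number occurs once in each of 6 groups, so every comparison was made within groups. The groups combine 2 mouse lines with 3 treatments. NIH3T3, an embryonic fibroblast line, is called WT, and NIH3T3-mCherry-mTRIM21, which carries mouse TRIM21 fused to a red fluorescent protein, is called TRIM21. Each line was pulsed 2 times for 20 ms at 1400 V with PBS, with BSA (the serum albumin of cattle) or with IgG antibody, and RNA was taken after 16 h. All groups, PBS included, received the pulses and were grown in medium with calf serum. The labels do not state what the number marks, whether the TRIM21 line is 1 clone, or whether same-numbered samples were cultured or processed together. If the number marks a culture or processing round, there is 1 round against 2, and the p-values below measure the spread between samples and not between rounds.

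Trim21 counts served as a check of the line labels. Trim21 lay between 984.2 and 1188 CPM (counts per 1e6 reads, scaled by the TMM method) in the 9 TRIM21 samples and between 6.54 and 9.73 CPM in the 9 WT samples. Within groups Trim21 differed by -0.10 ± 0.08 (SE) on the log2 scale between number 10 and the others, which did not pass the test (edgeR quasi-likelihood, Benjamini-Hochberg adjusted p = 0.53). Of 12 fibroblast markers, 12 passed the filter on low counts, against 2 of 12 epithelial, 4 of 10 macrophage, 1 of 8 endothelial, 1 of 9 muscle and 2 of 8 adipocyte markers. The summed epithelial markers stayed under 2.47 CPM in every sample.

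Cells short of oxygen stabilize HIF transcription factors, which bind DNA at core letters such as ACGTG. HIF factors raise genes of glycolysis, blood vessel growth and mTOR restraint. Cells rich in sterols hold SREBP factors in the endoplasmic reticulum and transcribe fewer genes of sterol synthesis. In fibroblasts a serum change also resets the circadian clock, whose CLOCK and BMAL1 activators bind the E-box CACGTG. These statements are background and not results.

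Of 12140 genes tested, 432 differed between the samples numbered 10 and the rest at a Benjamini-Hochberg adjusted p under 0.05 in edgeR's quasi-likelihood test, which is 3.56%. Of these, 282 (2.32%) were higher in number 10 and 150 (1.24%) were lower. The changes were small. The median absolute log2 difference of the called genes was 0.34, and 66 rose and 12 fell by at least 1.5-fold. The direction was the same in all 6 groups for 375 of the 432 genes. The number of calls changed when single samples were left out. Without the WT PBS sample numbered 10 it was 123 genes, and without the TRIM21 PBS sample numbered 11 it was 659. By the same test, 115 genes (0.947%) set number 11 apart from the other two numbers and 588 (4.84%; 257 or 2.12% higher, 331 or 2.73% lower) set number 14 apart. Leaving out 1 sample gave 66 to 904 genes for number 14, and the order of numbers 10 and 14 turned in some of these fits. Without the WT BSA sample numbered 14 there were 66 genes for number 14 and 335 for number 10, and without the TRIM21 PBS sample numbered 14 there were 120 and 585. In the fit with a level for each number, 461 genes (3.8%) differed between 10 and 11, with 2.02% higher and 1.78% lower in 10. Between 10 and 14 it was 1025 genes (8.44%), with 4.92% higher and 3.53% lower in 10. Between 11 and 14 it was 635 genes (5.23%), with 3.21% higher and 2.02% lower in 11. Of the 432 genes, 270 were also called in the same direction in 10 against 11, and 354 in 10 against 14. These comparisons share samples. Leaving out 1 sample gave 135 to 681 genes for 10 against 11, 239 to 1472 for 10 against 14 and 79 to 1258 for 11 against 14.

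**Figure D1:**
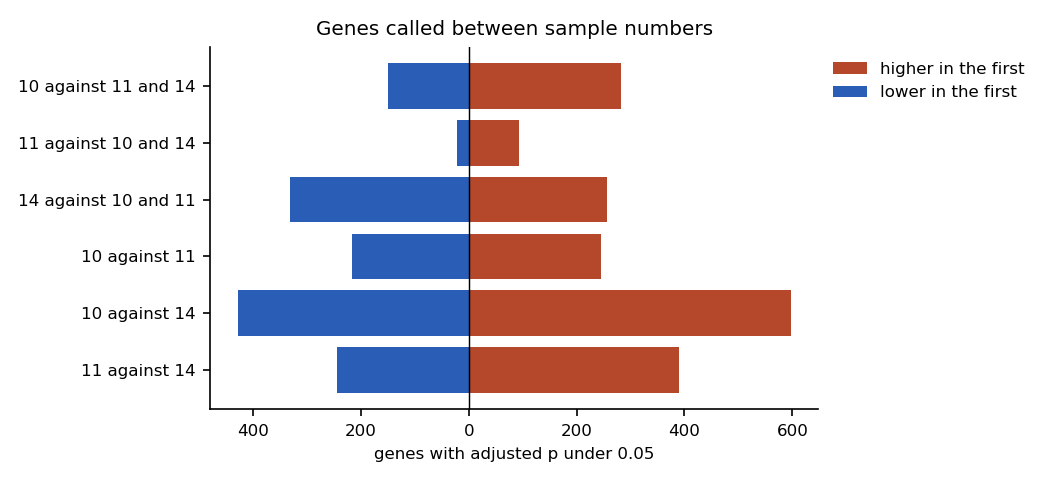
Genes with an adjusted p under 0.05 (x axis, number of genes) in each comparison between sample numbers (y axis); bars to the right are higher and bars to the left lower in the first number. The comparison of 10 with 14 holds the most genes (1025), and 282 of the 432 genes of 10 against 11 and 14 are higher in 10.

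Some genes known to respond to low oxygen were higher in number 10. Of 23 listed, 21 were tested, 4 rose and none fell, and the median log2 difference was 0.17, against -0.00034 over all genes tested. Over all genes, 2.32% rose and 1.24% fell. The list's median was 0.31 against number 11 and 0.07 against number 14, and between 11 and 14 it was -0.25. Ankrd37, an ankyrin repeat protein induced by HIF, lay at 36.9 to 62.4 CPM (median 45.8) in the 6 samples numbered 10 and at 11.2 to 26.5 CPM (median 20.0) in the other 12. The ranges did not overlap, and the log2 difference was 1.26 ± 0.12 (SE; adjusted p = 3.9e-05). Adm, which encodes the vasodilator adrenomedullin, lay at 39.7 to 56.4 CPM (median 48.1) against 15.8 to 39.1 CPM (median 27.0), again without overlap. Its log2 difference was 0.92 ± 0.13 (adjusted p = 0.0011). Ddit4, an inhibitor of mTOR complex signalling also induced by other stresses, lay at 104.8 to 120.5 CPM (median 111.5) against 35.4 to 85.1 CPM (median 61.9), and differed by 0.88 ± 0.13 (adjusted p = 0.0017). Kdm3a, a histone demethylase, lay at 263.2 to 309.4 CPM (median 281.8) against 130.7 to 263.6 CPM (median 208.1). Its ranges touched at the WT PBS sample numbered 14, and its log2 difference was 0.49 ± 0.09 (adjusted p = 0.0062). All 4 genes stayed called when any 1 of the 18 samples was left out.

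No other member of the oxygen list passed the test. Higd1a, a mitochondrial protein, was 0.43 higher with an adjusted p of 0.063, and the growth factor Vegfa 0.36 higher with an adjusted p of 0.12. Pdk1 differed by 0.09 (adjusted p = 0.70), and Ndrg1 by 0.02 (adjusted p = 0.97). The list's median was positive in all 6 groups, from 7.5e-05 in WT PBS to 0.56 in TRIM21 PBS. Without the TRIM21 PBS sample numbered 11 the median was 0.12 and 5 members rose. Over all 12140 genes, 382 rose in that fit and 282 in the main fit. Among the 14 glycolysis genes tested, 13 were above 0 with a median of 0.14. Hk2, the hexokinase that starts glycolysis, rose from 82.3 to 143.7 CPM (median 106.2) in the 12 samples to 142.0 to 161.0 CPM (median 149.2) in number 10, a log2 difference of 0.44 ± 0.10 (adjusted p = 0.018). It was the 1 member called, when 2.32% of all genes rose, and leaving out single samples ended the call in 3 of 18 fits. Hilpda, a lipid droplet protein induced by HIF that is outside the list and was chosen after its values were seen, differed by 0.83 ± 0.15 (adjusted p = 0.0062).

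Clock genes were called in 3 of 20 tested cases, all higher, when 2.32% of all genes rose. The list median was 0.08, which was 0.18 against number 11 and 0.05 against number 14. Between 11 and 14 it was -0.16, with 4 of 20 members lower in 11 (2.02% of all genes were) and 0 higher. By these medians the list set number 11 apart more than number 10. Bhlhe40 and Bhlhe41 encode the DEC repressors of CLOCK and BMAL1, which are also known to be induced by HIF, and Ciart encodes a further repressor of the same activators. Bhlhe40 lay at 189.9 to 217.4 CPM (median 199.9) in number 10 and at 73.7 to 129.0 CPM (median 97.8) in the others. The ranges did not overlap, and the log2 difference was 0.99 ± 0.09, with the smallest adjusted p of the named genes (2.9e-05). Bhlhe41 lay at 19.2 to 24.1 CPM (median 22.3) against 7.33 to 18.9 CPM (median 13.2), a difference of 0.77 ± 0.16 (adjusted p = 0.012). Ciart lay at 7.60 to 11.7 CPM (median 9.34) against 2.85 to 7.54 CPM (median 4.88), a difference of 0.90 ± 0.15 (adjusted p = 0.0041). Other clock genes did not pass: Nr1d1 differed by 0.32 (adjusted p = 0.34), Per1 by 0.25 (adjusted p = 0.33) and the activator Arntl by 0.04 (adjusted p = 0.80).

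**Figure D2:**
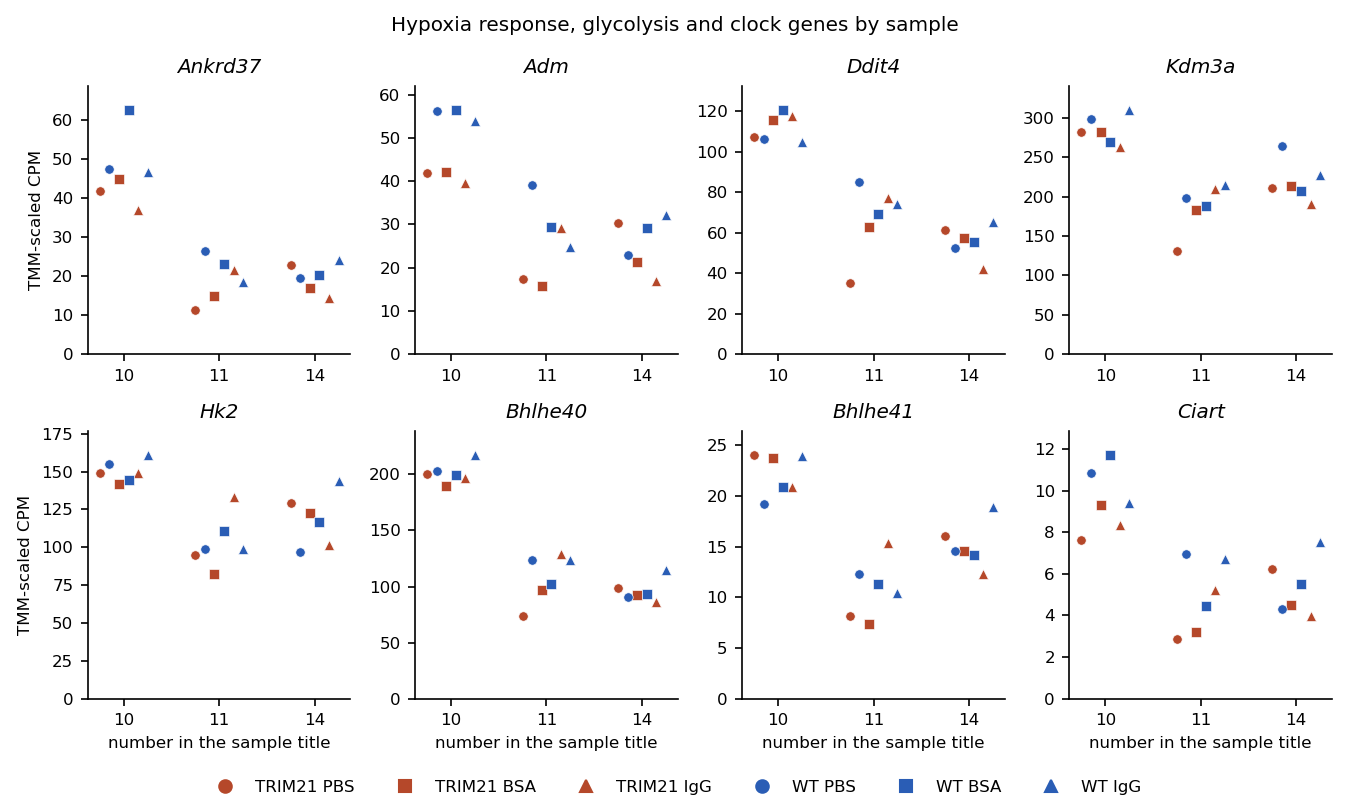
TMM-scaled CPM (y axes from 0) of 8 genes in each of the 18 samples, by the number in the sample title (x axis); each point is 1 sample, colours mark the line and shapes the treatment. In number 10 Bhlhe40 sits at 189.9 to 217.4 CPM, above all 12 other samples, while Hk2 and Kdm3a in number 10 come close to or overlap their highest values elsewhere.

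The promoters of genes that rose together are shown because the HIF core and the E-box share letters. The windows are the 250 bases before the gene start in the RefSeq table of GRCm38.p6, each on the gene's own strand. Capitals mark ACGTG and its reverse complement CACGT, which together spell the E-box CACGTG where they overlap. Ankrd37 is at chr8:45999851-46000100, Ddit4 at chr10:59951771-59952020 and Bhlhe41 at chr6:145865421-145865670. Ciart is at chr3:95882229-95882478. These 4 genes lie on the minus strand.
Ankrd37: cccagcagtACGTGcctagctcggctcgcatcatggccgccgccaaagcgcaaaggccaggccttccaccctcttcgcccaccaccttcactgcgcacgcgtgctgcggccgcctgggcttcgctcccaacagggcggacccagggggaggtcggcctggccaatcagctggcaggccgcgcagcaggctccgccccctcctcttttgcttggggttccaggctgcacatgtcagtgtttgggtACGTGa
Ddit4: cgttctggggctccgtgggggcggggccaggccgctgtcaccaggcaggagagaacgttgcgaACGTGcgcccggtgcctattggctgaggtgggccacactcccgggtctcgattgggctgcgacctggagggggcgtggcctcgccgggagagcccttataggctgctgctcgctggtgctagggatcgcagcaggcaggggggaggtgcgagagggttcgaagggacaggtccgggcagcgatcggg
Bhlhe41: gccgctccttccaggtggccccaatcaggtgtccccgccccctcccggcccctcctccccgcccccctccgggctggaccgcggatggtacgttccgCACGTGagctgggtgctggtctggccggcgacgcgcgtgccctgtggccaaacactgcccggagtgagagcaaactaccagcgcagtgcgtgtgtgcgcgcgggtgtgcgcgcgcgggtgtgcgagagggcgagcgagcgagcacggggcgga
Ciart: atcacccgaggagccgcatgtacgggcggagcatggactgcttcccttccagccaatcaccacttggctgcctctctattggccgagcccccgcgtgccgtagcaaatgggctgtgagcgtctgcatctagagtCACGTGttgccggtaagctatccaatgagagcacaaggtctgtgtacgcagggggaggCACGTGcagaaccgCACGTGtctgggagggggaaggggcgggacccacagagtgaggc
Ankrd37 had 2 core matches, 241 and 6 bases before its start, and Ddit4 had 1, 187 bases before. Bhlhe41 had 1 E-box and Ciart had 3. Hk2, which also rose, had 2 matches to ACGTG or CACGT, and Adm and Kdm3a had none in this window. Other forms of the HIF core were not searched. Of the sterol genes that fell, Hsd17b7 had 1 E-box, 143 bases before its start, and Nsdhl had no match, so matches were not limited to genes that rose. The letters ACGTG or CACGT occurred in 16.6% of 32851 promoters of the table and in 21.6% of 11640 promoters of tested genes. The E-box occurred in 6.02% and 8.2% of the same promoters. A match describes the letters only.

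Apart from these, the largest rises were in genes of varied function. Zbed6, a transcription factor gene within an intron of Zc3h11a and known as a repressor of Igf2, lay at 21.2 to 52.5 CPM (median 43.9) in number 10 and at 5.27 to 19.8 CPM (median 11.4) in the others. The ranges did not overlap, and the log2 difference was 1.75 ± 0.22 (adjusted p = 2.5e-04). Zc3h11a itself, whose reads on the same strand surround Zbed6, differed by -0.04 (adjusted p = 0.78). Proser1 rose by 1.59 ± 0.15 (14.5 to 22.7 against 3.65 to 9.35 CPM, adjusted p = 3.4e-05). D830031N03Rik, which matched no gene position, rose by 1.69 ± 0.20 (adjusted p = 1.6e-04). Nbeal1 rose by 1.14, BC005561 by 0.96 and Rassf8, a Ras-association protein, by 0.92, all with adjusted p under 0.05. Zbed6, Proser1, Nbeal1 and Rassf8 were called in each of the 18 fits that left out 1 sample. Lcor, of low count and chosen after its values were seen, rose by 1.18.

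Stress and signalling genes moved in both directions. Tnfaip3, the ubiquitin-editing inhibitor of NF-kB known as A20, lay at 15.1 to 19.7 CPM (median 16.0) against 2.96 to 9.45 CPM (median 6.46), a log2 difference of 1.31 ± 0.15 (adjusted p = 1.6e-04). It was the 1 NF-kB target called among 31, whose median was 0.0049, when 3.56% of all genes were called. Ier3, an immediate early survival gene, lay at 39.6 to 50.4 CPM (median 45.8) against 15.2 to 31.1 CPM (median 19.7) and rose by 1.09 ± 0.14 (adjusted p = 3.7e-04). The early genes Tiparp and Dusp1, a phosphatase of MAP kinases, each rose by 0.27, while the orphan nuclear receptors Nr4a1 and Nr4a2 each fell by 0.46. Of 36 early genes tested, 3 rose and 2 fell, when 2.32% of all genes rose and 1.24% fell. Nr4a1 lay at 20.5 to 25.7 CPM (median 23.8) against 24.4 to 39.5 CPM (median 32.1), with an adjusted p of 0.0065. Of 44 ATF4 targets and amino acid synthesis genes, Tars, a threonine tRNA ligase, Vldlr, a lipoprotein receptor, and Ppp1r15a, a phosphatase subunit of the stress response, rose by 0.41, 0.57 and 0.33. The call of Ppp1r15a held in 4 of 18 fits with a sample left out. The median of that list was 0.20 in the TRIM21 line and -0.0015 in the WT line, a difference that was not tested for the list. Its median was 0.02 against number 11 and 0.27 against number 14. Between 11 and 14 it was 0.23, with 16 of 44 members higher in 11 (3.21% of all genes were). By these medians the list set number 14 apart more than number 10. Arrdc3, an arrestin-like protein, rose by 0.58 ± 0.10 (167.1 to 214.3 against 69.2 to 157.9 CPM, adjusted p = 0.0043).

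Some sterol and fatty acid synthesis genes fell in number 10, and most members of both lists did not pass the test. Of 25 sterol genes listed, 24 were tested, 6 fell and none rose, 22 lay below 0, and the median log2 difference was -0.16. Over all genes, 1.24% fell and 2.32% rose. Nsdhl and Hsd17b7, which act in turn in the removal of methyl groups from sterol precursors, showed the largest falls. Nsdhl lay at 55.9 to 86.5 CPM (median 74.0) against 73.3 to 119.9 CPM (median 98.8), and Hsd17b7 at 33.1 to 44.4 CPM (median 37.9) against 38.7 to 64.1 CPM (median 51.3). The ranges overlapped across groups, but in all 6 groups number 10 was below both other samples for both genes. The log2 differences were -0.40 ± 0.08 (adjusted p = 0.0089) and -0.39 ± 0.08 (adjusted p = 0.013). Acat2, an acetyl-CoA thiolase, fell by 0.31, Insig1, the sterol sensor that retains SREBP, by 0.30, and Fdps, which makes farnesyl diphosphate, by 0.24. Hmgcs1, an early enzyme of the pathway, differed by -0.15 (adjusted p = 0.49). The list's median was below 0 in all 6 groups, from -0.31 in TRIM21 BSA to -0.04 in TRIM21 PBS. The number of sterol genes that fell was 12 with an offset for transcript GC content and 1 without the TRIM21 BSA or the TRIM21 IgG sample numbered 10, with medians from -0.21 to -0.14 over the fits leaving out 1 sample. Over all 12140 genes, 150 fell in the main fit and 407 with the offset. Without the TRIM21 BSA sample numbered 10 it was 20, and without the TRIM21 IgG one 34.

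Of 14 fatty acid genes tested, 3 fell (1.24% of all genes did) and none rose, with a median of -0.11. These were the desaturases Fads1 and Fads2 and the elongase Elovl1, which lengthen or desaturate fatty acids. Fads1 lay at 243.6 to 274.2 CPM (median 262.9) against 277.7 to 351.0 CPM (median 305.5), without overlap, a log2 difference of -0.24 ± 0.05 (adjusted p = 0.015). Elovl1 fell by 0.23 and Fads2 by 0.21. Fasn, the fatty acid synthase, differed by -0.04 (adjusted p = 0.89). Without the TRIM21 BSA or the WT IgG sample numbered 10, no fatty acid gene was called, when 20 and 36 of all 12140 genes fell.

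**Figure D3:**
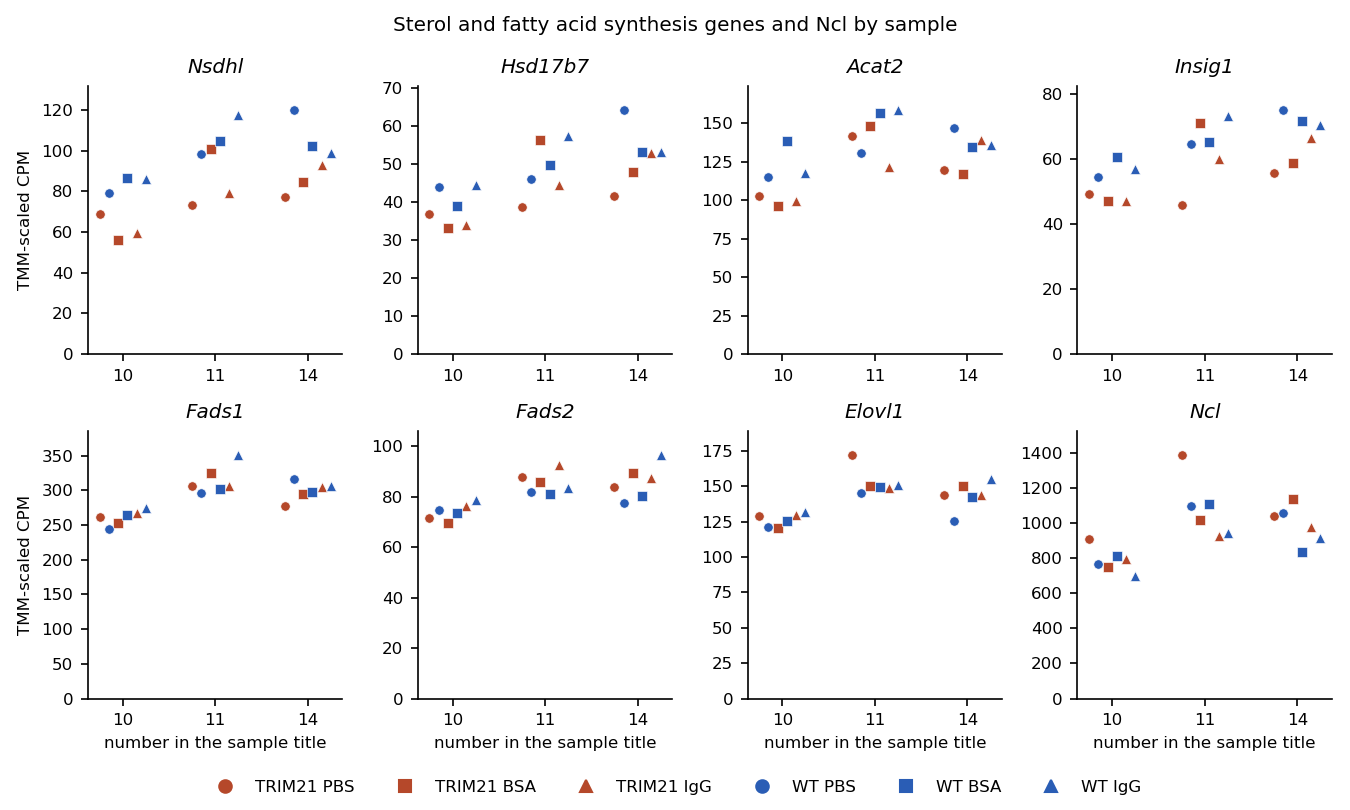
TMM-scaled CPM (y axes from 0) in each of the 18 samples by sample number (x axis) for 4 sterol genes, 3 fatty acid genes and Ncl; each point is 1 sample, colours mark the line and shapes the treatment. Fads1 in number 10 (243.6 to 274.2 CPM) lies below all 12 other samples, whereas the ranges of Nsdhl overlap although number 10 is lowest within each group.

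Among the largest falls, Igf2, a fetal growth factor, lay at 91.3 to 240.3 CPM (median 155.3) in number 10 and at 139.7 to 513.7 CPM (median 270.8) in the others. Number 10 was the lowest sample in all 6 groups, and the log2 difference was -0.84 ± 0.14 (adjusted p = 0.0043). Igf2 also differed between the other numbers, by -0.58 for 11 against 14 (edgeR, adjusted p = 9.0e-04). For number 14 against the rest it differed by 0.82 (adjusted p = 0.0042), so it was not particular to number 10. Vip, a secreted neuropeptide, lay at 7.70 to 14.6 CPM (median 10.5) against 11.3 to 25.4 CPM (median 17.3), with a log2 difference of -0.73 ± 0.09 (adjusted p = 2.4e-04). Osbp2, an oxysterol binding protein, fell by 0.67, Gtf2a1, a general transcription factor subunit, by 0.50, and Atxn1 by 0.45. Nexn and Actg2, actin-binding and actin proteins of contractile cells, fell by 0.49 and 0.48. Actg2 kept its call in 5 of the 18 fits that left out 1 sample, as did Pcdhb9, a protocadherin that fell by 0.45 and shares sequence with its clustered relatives.

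Gene lists for translation and respiration were shifted upward as groups with few members called. Of 78 cytosolic ribosomal protein genes tested, 5 rose, none fell, 72 lay above 0 and the median log2 difference was 0.20. Of 76 nuclear genes of the respiratory chain, 7 rose, none fell and 74 lay above 0, with a median of 0.18. Of 77 mitochondrial ribosomal protein genes, 2 rose, 70 lay above 0 and the median was 0.13, with 0 to 11 called when 1 sample was left out. Over all genes tested 2.32% rose, which is near the share of mitochondrial ribosomal genes called, and 6061 of 12140 lay above 0. Against number 11 the medians were 0.16 for cytosolic ribosomal, 0.13 for respiratory chain and 0.06 for mitochondrial ribosomal genes. Against number 14 they were 0.24, 0.20 and 0.19. Cox7b, a subunit of cytochrome oxidase, lay at 166.3 to 223.3 CPM (median 184.5) against 100.9 to 182.3 CPM (median 142.6), and Rpl35, a large-subunit ribosomal protein, at 360.0 to 491.9 CPM (median 426.9) against 194.8 to 370.5 CPM (median 294.1). Their ranges overlapped slightly, and their log2 differences were 0.44 ± 0.09 (adjusted p = 0.0097) and 0.57 ± 0.13 (adjusted p = 0.020). Rpl35 differed by 0.43 from number 11 (edgeR, adjusted p = 0.079) and by 0.73 from number 14 (adjusted p = 0.0047). Sdhb, a subunit of succinate dehydrogenase, rose by 0.36 and Atp5k, of ATP synthase, by 0.42. Many ribosomal protein genes have near-identical pseudogene copies, so their counts depend on how reads shared with those were treated.

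The shift was not present in every group. The ribosomal protein median was 0.28 to 0.32 in the 3 WT groups and in TRIM21 it was 0.30 with BSA, 0.09 with IgG and -0.05 with PBS. The respiratory chain median likewise was -0.07 in TRIM21 PBS and 0.14 to 0.31 elsewhere. Calls in these lists depended on single samples: no ribosomal protein gene was called without the TRIM21 BSA, WT PBS or WT IgG sample numbered 10, and no respiratory chain gene without the TRIM21 BSA or WT IgG one, whereas the medians stayed at 0.17 to 0.27 and 0.13 to 0.21. The loss was not limited to these lists. Over all genes, calls fell from 432 to 131 without TRIM21 BSA, 123 without WT PBS and 138 without WT IgG numbered 10. An offset for transcript length moved the respiratory chain median by 0.09, to 0.10, the largest such move among 32 lists of at least 10 tested genes. With the same offset the ribosomal protein median went from 0.20 to 0.12 and the mitochondrial ribosomal one from 0.13 to 0.08. The median transcript length was 1186 bases for respiratory chain genes, 1076 for ribosomal protein genes and 1849 for mitochondrial ribosomal protein genes, against 3402.5 over all genes tested. The part of transcript length in the rest of the shift was not tested.

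**Figure D4:**
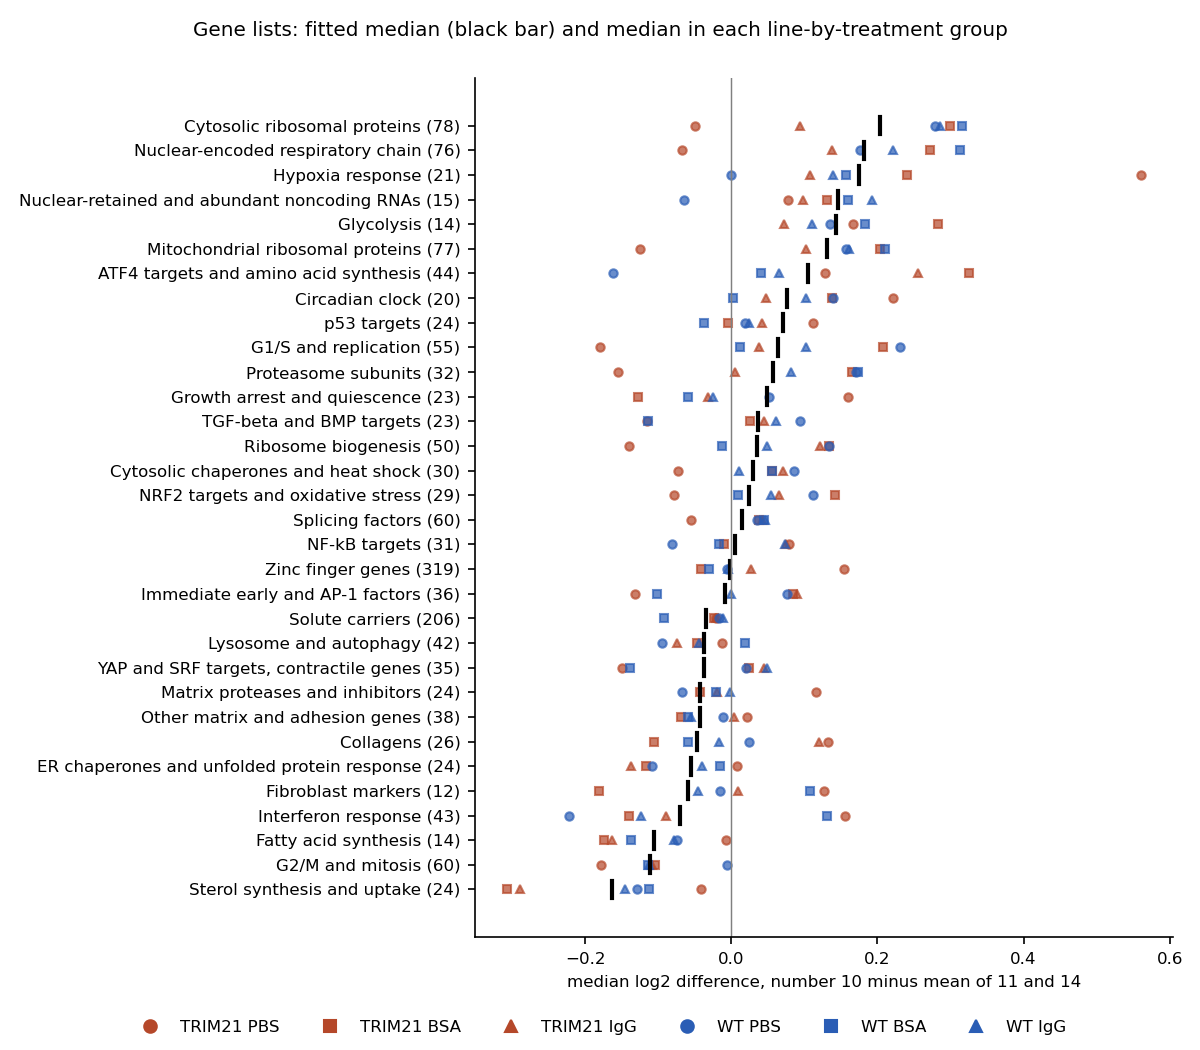
Median log2 difference, number 10 minus the mean of 11 and 14 (x axis), of the lists with at least 10 tested genes (y axis, number tested in brackets); black bars are the fitted medians, points the medians in each line and treatment group. Ribosomal protein genes have the highest median (0.20) with TRIM21 PBS at -0.05, and sterol genes the lowest (-0.16) with all 6 groups below 0.

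Genes of ribosome assembly, splicing, matrix and contraction changed singly, when 2.32% of all genes rose and 1.24% fell. Ncl, nucleolin, which acts in rRNA synthesis, lay at 698.9 to 907.3 CPM (median 778.7) against 837.9 to 1388 CPM (median 1028) and fell by 0.39 ± 0.07 (adjusted p = 0.0084). Of 50 ribosome assembly genes, Ncl fell and Heatr1 rose (0.31, adjusted p = 0.049), a call kept in 4 of the 18 fits that left out 1 sample. Of 60 splicing genes, Hnrnpa3, Hnrnpm and Luc7l2 fell by 0.30, 0.21 and 0.29, while Clk4, a kinase of splicing factors, and Snrpc rose, Clk4 by 0.33. Fn1, the matrix protein fibronectin, lay at 4006 to 5419 CPM (median 4486) against 1969 to 4062 CPM (median 3259) and rose by 0.56 ± 0.11 (adjusted p = 0.0089). Lamb1, a laminin chain, rose by 0.32 and Bgn, the proteoglycan biglycan, fell by 0.30. None of 26 collagen genes was called by edgeR, DESeq2 or limma-voom (median -0.05). At an unadjusted p under 0.05 in edgeR there was 1 collagen gene, when 2211 of all 12140 genes passed. Of 35 contractile genes, Actg2 and Cald1 fell. Of 43 interferon response genes 1 fell, the GTPase gene Irgm1 (-0.31 ± 0.07, adjusted p = 0.023).

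Zinc finger genes, of which 319 with symbols starting in Zfp were tested, had a median of -0.0014. Among them 8 rose (2.32% of all genes did) and 1 fell. Zfp455 lay at 1.35 to 2.04 CPM (median 1.65) against 0.20 to 0.66 CPM (median 0.42), without overlap, and rose by 1.92 ± 0.19 (adjusted p = 3.4e-05). Its raw counts ran from 4 to 44 per sample. Zfp11, Zfp53 and Zfp52 rose by 0.96, 0.66 and 0.42. Zfp genes share sequence with close relatives, and reads they share cannot be assigned here. Of 206 genes with symbols starting in Slc, 1 rose and 4 fell, when 2.32% of all genes rose and 1.24% fell. Slc7a6os and Slc9a3r1, both among these, are not solute carriers. Slc44a2, a choline transporter-like protein, fell by 0.25 and Slc29a3, a nucleoside transporter, by 0.33.

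Cell cycle genes separated the numbers in a different way. None of 60 mitosis genes and none of 55 replication genes was called in number 10 against the rest by edgeR. At an unadjusted p under 0.05 there were 12 and 6, DESeq2 called 3 and 0, and limma-voom called 0 and 0. The same counts over all 12140 genes were 2211 unadjusted, 726 by DESeq2 and 444 by limma-voom. The mitosis median was -0.11 and was below 0 in all 6 groups. It was -0.30 against number 11 and 0.08 against number 14, so the pooled value averaged opposite signs. Between 11 and 14, 40 of 60 mitosis genes and 21 of 55 replication genes were higher in 11 (3.21% of all genes were) and none was lower. Aurka, a mitotic kinase, averaged 35.5 CPM in number 10, 48.2 in 11 and 33.5 in 14, and was 0.51 higher in 11 than in 14 (adjusted p = 0.0052). Ccnb1, the mitotic cyclin, averaged 18.8, 27.5 and 20.3 CPM in the same order. Collagen genes ran the other way, with 9 of 26 lower in 11 than in 14 (2.02% of all genes were) and a median of -0.35. Col3a1 averaged 4343 CPM in number 10, 3607 in 11 and 5788 in 14. Over the 18 fits leaving out 1 sample, 17 to 52 mitosis genes, 1 to 27 replication genes and 2 to 15 collagen genes were called in these directions and none in the other. The lowest counts of mitosis and collagen genes were without the WT BSA sample numbered 11, when 0.395% of all genes were higher and 0.255% lower in 11. Median log2 differences ranged from 0.32 to 0.42 for mitosis, 0.20 to 0.30 for replication and -0.47 to -0.23 for collagens, and the adjusted p of Aurka ranged from 0.0046 to 0.0324.

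Further lists had no member called by edgeR. Over all 12140 genes, 2211 had an unadjusted p under 0.05 in edgeR, DESeq2 called 726 and limma-voom 444. Among 32 proteasome subunits the median was 0.06, with 8 at an unadjusted p under 0.05 and 0 called by DESeq2 or limma-voom. The p53 target list had a median of 0.07 (24 tested, 5 unadjusted, 2 by DESeq2, 0 by limma-voom), and lysosome and autophagy genes -0.04 (42 tested, 7 unadjusted, 3 by DESeq2, 2 by limma-voom). Matrix proteases and their inhibitors had a median of -0.04 (24 tested, 7 unadjusted, 2 by DESeq2, 1 by limma-voom), and NRF2 targets, which counter oxidative stress, 0.02 (29 tested, 2 unadjusted, 0 by either other tool). Cytosolic chaperones had a median of 0.03 (30 tested, 2 unadjusted, 0 by either other tool).

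The difference of number 10 was not shown to depend on line or treatment. No gene passed a test of the difference between the lines (edgeR, 96 genes at an unadjusted p under 0.05, smallest adjusted p of 1) or between treatments (96 genes unadjusted). Within the TRIM21 line alone 15 genes were called, within WT 26, and with PBS, BSA or IgG alone 0, 13 and 47, in fits with fewer samples. Ankrd37 rose by 1.28 in the TRIM21 line, and Adm by 0.92.

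Transcript GC content was examined in each sample, because amplification can favour fragments by GC content. The slope of a sample's deviation from its group mean on GC content, in log2 CPM per 10 percentage points, was -0.11 in the TRIM21 PBS sample numbered 10 and between -0.009 and 0.036 in the other 5 numbered 10. Slopes ranged from -0.14 to 0.19 in number 11 and from -0.23 to 0.15 in number 14. The 3 slopes of a group sum to 0, so they are not independent. The number 10 mean was 0.0069 lower than that of the others, a difference within the spread (two-sided exact permutation test within groups, p = 0.93, smallest possible 0.00137). The mean absolute slope was 0.036 in number 10, 0.10 in 11 and 0.13 in 14. Samples with one number did not lean one way, with 4 of 6 slopes above 0 in number 10, 2 of 6 in 11 and 4 of 6 in 14.

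Calls were nonetheless uneven over GC content. Genes were split by GC content into 5 bins of equal size. In the lowest bin (29.6% to 43.7%), 3.9% were higher in number 10 and 0.871% were lower. In the highest bin (55.4% to 72.3%), 0.788% were higher and 0.705% were lower. The median GC content was 46.38% for genes that were higher, 49.29% for those that were lower and 49.47% for those tested. The median log2 difference was 0.018 in the lowest bin and 0.0063 in the highest, and across 12058 genes Spearman's rho between GC content and difference was -0.033, given as a description since genes share libraries. It was -0.14 for number 11 against the others and 0.17 for number 14. The median standard error was 0.080 in the lowest bin and 0.107 in the highest. With an offset that removes each sample's smooth trend on GC content, 867 genes (7.14%) were called, 460 (3.79%) higher and 407 (3.35%) lower, and 426 of the 432 remained called in the same direction. The higher share of calls then fell from 282 of 432 to 460 of 867, and in the lowest bin 5.89% rose and 4.56% fell.

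List medians of number 10 against the rest moved little with the GC offset, while counts of calls rose. Among the 32 lists with at least 10 tested genes, median GC content ran from 44.54% (Zfp genes) to 56.4% (collagens), and no list median of this comparison moved by more than 0.016 on the log2 scale. The sterol list had a median GC content of 49.18% and the hypoxia list 50.72%, near the 49.47% of all genes tested. Ankrd37, Bhlhe40 and Nsdhl differed by 1.26, 0.98 and -0.41 with the offset. Respiratory chain calls went from 7 to 13, mitochondrial ribosomal calls from 2 to 9 and sterol calls from 6 to 12. Over all genes, calls went from 282 (2.32%) to 460 (3.79%) higher and from 150 (1.24%) to 407 (3.35%) lower. Between 11 and 14, with the offset in an alternative chosen after seeing the data, the median went from 0.38 to 0.37 for mitosis genes, from 0.27 to 0.26 for replication genes and from -0.35 to -0.29 for collagens. Of these, 54 of 60 mitosis genes and 31 of 55 replication genes were then higher in 11 and 12 of 26 collagens lower, when 5.94% of all genes were higher and 5.16% lower.

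**Figure D5:**
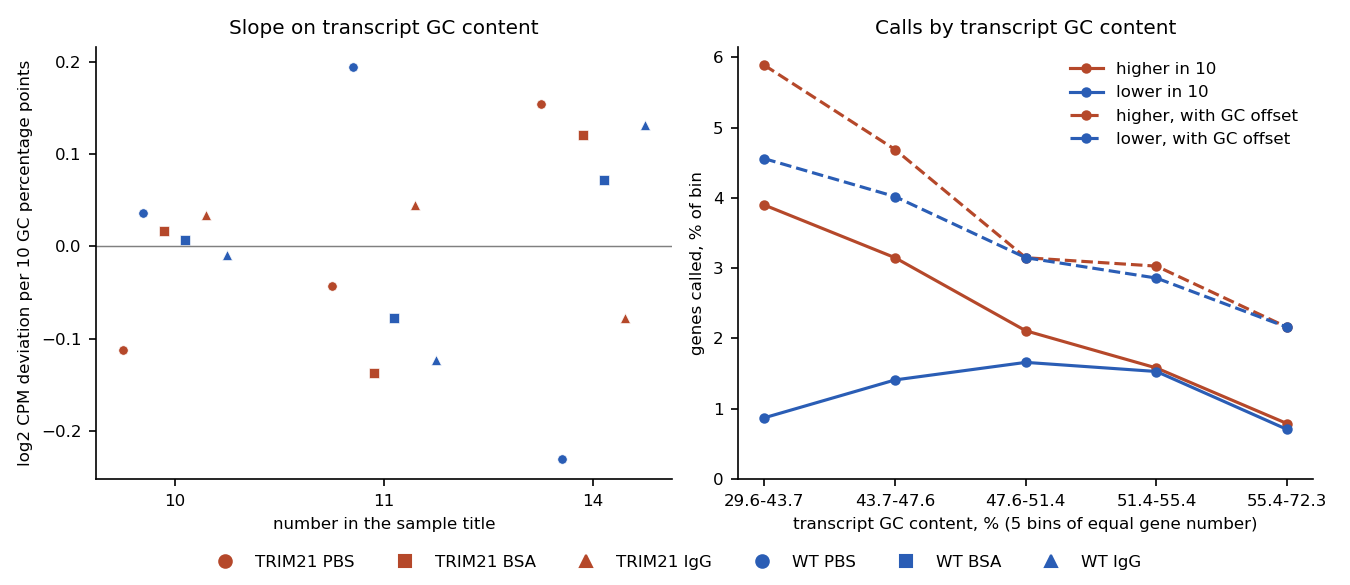
Left, slope of each sample's log2 CPM deviation on transcript GC content (y axis, per 10 percentage points) by sample number (x axis), 1 point per sample; right, share of genes called higher or lower in number 10 (y axis, %) in 5 bins of transcript GC content (x axis), without (solid) and with (dashed) the GC offset. Slopes in number 10 lie near 0 except TRIM21 PBS at -0.11, and the share called higher drops from 3.9% to 0.788% across the bins.

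Other library measures differed little. Gene counts summed to 21268723 to 25188572 per sample in number 10 and 19509017 to 29766433 in the others. Reads outside genes were 14.9% in number 10 and 16.4% in the others (two-sided exact permutation test within groups, p = 0.038, adjusted over 6 measures 0.23), and their part in the gene differences was not tested. Deviations from group means correlated across genes by 0.28 on average over 15 pairs of samples numbered 10, with all 15 above 0, by 0.15 in number 11 and by 0.23 in number 14. Pairs with different numbers in different groups averaged -0.11. Deviations sum to 0 within each group, so this average follows from that of same-numbered pairs and is not a separate result.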

How the data were processed

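RNA was measured by strand-specific, polyA-enriched sequencing in 18 samples. The deposited values are raw counts of reads per gene symbol, 1 table per sample, with 24062 genes. The submitters' processing notes name bcl2fastq 2.19.1.403, FastQC 0.11.5, STAR 2.5.1b, HTSeq 0.6.0, DESeq2 1.6.3 and mm10. The annotation and counting mode are not given in the sources used here, so reads of overlapping genes may be split differently than assumed. Lines for reads assigned to no gene were left out of library sizes. Reads outside genes were 13.1% to 18.8% of the sum of reads in genes, outside genes and ambiguous between genes.

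Counts were fitted with edgeR 4.0.16 in R 4.3.3 (filterByExpr, minimum count 10, minimum total 15; TMM factors 0.977 to 1.03; glmQLFit and glmQLFTest). The model had 6 group means and an indicator for number 10. Adjustment of p-values was by Benjamini-Hochberg over 12140 genes (threshold 0.05). CPM values use TMM library sizes. Transcript length and GC content came from the longest transcript of each gene in the GENCODE annotation of GRCm38 (22750 symbols matched directly, 933 by an older symbol, 379 not). The GC and length offsets were lowess curves fitted per sample. The genes named are Trim21, the 10 largest rises and 10 largest falls among called genes with the same sign in all 6 groups and a mean of at least 5 CPM, and up to 4 called members of each of 40 lists (the most abundant where none passed). Others are said to be chosen after their values were seen, or are uncalled or remaining members of a list described. Values of some single genes are not reported here. Members and lists were chosen with earlier results of these data known. In simulated counts for this comparison on 12140 genes, recovery was 29.9% at a true fold of 1.25, 91% at 1.5 and 97% at 2. There were 4 false calls. Whether recovery and false calls are the same in the measured samples, whose slopes on GC content differed, was not tested. For same-group pairs, chi-square divided by its degrees of freedom was 10.7 to 83.7, so no library was counted as a duplicate. Alternatives included DESeq2 1.42.0 and limma 3.58.1 (voom). Nothing in the labels shows that samples of a group came from separate cultures.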

Additional observations from a re-analysis of the deposited data

Results flagged for a closer look

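In each set of 6 values, the highest or lowest was compared with its nearest neighbour, and the gap was set against the range (Dixon's critical value 0.625). Of 47 such sets 7 were picked out, where chance picks about 1 in 20. Among samples with one number, the slope on transcript GC content of the TRIM21 PBS sample numbered 10 was -0.112, and the slope on log2 transcript length of the WT PBS sample numbered 11 was -0.0762. Among the 6 group differences of number 10 against 11 and 14, the TRIM21 PBS group stood apart with a median of -0.125 for mitochondrial ribosomal proteins, -0.0546 for splicing factors, 0.1545 for Zfp genes and 0.115 for matrix proteases and inhibitors. The WT BSA group stood apart for Slc genes at -0.0919. Of these, 5 of the 7 come from the TRIM21 PBS group.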

How the results depend on the processing

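For number 10 against 11 and 14, the 432 calls became 726 with the DESeq2 Wald test, 867 with the GC offset (460 higher and 407 lower), 1522 against number 14 only, 15 in the TRIM21 line, 26 in the WT line and 0, 13 and 47 with PBS, BSA and IgG only. The counts stayed within 1.5 times under DESeq2 size factors (436), no filter (514), a minimum of 10 counts (433), limma-voom (444), no group adjustment (311), the length offset (567) and against number 11 only (593). DESeq2 size factors shifted the median log2 difference of all genes by -0.0055. As a replicate block, with the number as 3 levels, 669 genes were called, and 1402 with the GC offset and the replicate block together. Deviations of same-numbered samples correlated by 0.218 on average over 45 pairs, with 38 above 0 and the lowest at -0.323. The correlations do not show what the number marks. With the GC offset, number 11 went from 115 to 287 calls, number 14 from 588 to 1084, and the pairs to 1051 (10 against 11), 1753 (10 against 14) and 1347 (11 against 14). Leaving out 1 sample gave 123 to 659 calls for number 10, 3 to 207 for 11 (lowest without WT BSA, highest without WT PBS numbered 11) and 66 to 904 for 14 (lowest without WT BSA numbered 14, highest without TRIM21 PBS numbered 10), and 0 for differences by line and treatment. For the pairs, in fits added after seeing the data, it gave 135 (without TRIM21 BSA numbered 10) to 681 (without WT PBS numbered 14) for 10 against 11, 239 (without TRIM21 BSA numbered 10) to 1472 (without TRIM21 PBS numbered 11) for 10 against 14, and 79 (without WT BSA numbered 11) to 1258 (without WT PBS numbered 11) for 11 against 14. The cause of these moves was not tested, except that fits within a line or treatment have fewer samples. The GC slope difference was 0.0031 with abundant genes only and -0.0089 with GC content averaged over transcripts, with exact p from 0.76 to 0.97 over all alternatives. Among values of named genes under the alternatives, 2436 stayed on their side of the threshold, 582 lost it and 25 gained it. The sign turned in 47 of these values, from 10 genes, none of them past the threshold in either fit. Among list medians 252 moved by less than their spread over groups and 21 by more, all of these against a single number. Depth, at least 19509017 gene counts per sample, limits genes of few counts most.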
